A study of Mus musculus with 3 samples.

Results

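Aminoacyl-tRNA synthetases are the enzymes that load each amino acid onto its tRNA. Here 36 of their genes were followed among the 21150 named genes of a mouse array. A probe was taken for a member when the transcript accession it carries in the scanner tables belongs to that gene, which gave 44 probes, with 2 probes for each of 8 members and 1 for each of the other 28. By the compartment of the enzyme, 18 members were cytosolic, 16 were mitochondrial, and Gars and Kars encode both a cytosolic and a mitochondrial form and were kept apart. This rule uses no measured value.

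The RNA came from 3 groups of pancreatic cells, each on 1 array: acinar cells, duct cells, and cells in acinar-to-ductal metaplasia (ADM), a state in which secretory traits give way to duct-like ones. All were cut by laser microdissection from frozen pancreas of 3 WT mice, 48 h after pancreatitis was induced with caerulein, a cholecystokinin analogue that overstimulates acinar cells. The acinar and duct cells therefore came from inflamed tissue as well, and no untreated pancreas was analysed here. The sources used here do not state how the cells were recognised, nor whether RNA of several mice was pooled for an array. The question of the series was how ADM cells compare with the other cell types. With 1 array for each group, no difference has a replicate check and none was tested.

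Acinar cells make and export digestive enzymes at a high rate, so their demand for charged tRNA is large. The cytosolic synthetases supply the ribosomes of the cytosol, and several of them sit with the scaffold proteins Aimp1, Aimp2 and Eef1e1 in a multisynthetase complex. The mitochondrial enzymes, encoded in the nucleus by separate genes, supply the ribosomes that translate the few proteins of mitochondrial DNA. When charged tRNA runs short, the kinase Gcn2 (Eif2ak4) phosphorylates eIF2, translation of the transcription factor ATF4 increases, and ATF4 with C/EBP partners activates genes of amino acid supply through C/EBP-ATF response elements, many cytosolic synthetase genes among them.

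The core of that element, TGATGNAA (TTNCATCA when read on the opposite strand), was searched on both strands of the RefSeq windows that run from 250 bases before to 50 bases after a start site (GRCm38.p6). A window was found for 11 of 18 cytosolic, both dual and 14 of 16 mitochondrial members. The letters were present in 4 of the 11 cytosolic genes (36.4%), in 1 of the 2 dual genes (Gars) and in 0 of the 14 mitochondrial genes, against 1219 of 27025 genes (4.51%) and 1304 of 32851 windows (3.97%) over the whole table. The stretches that hold a match are shown because this element is the known route of the amino acid response. They lie in Aars at chr8:111033694-111033773 and chr8:111033840-111033869 (plus strand), Iars at chr13:49682126-49682155 (plus), Tars at chr15:11399659-11399738 (minus), Yars at chr4:129189895-129189924 (plus) and Gars at chr6:55037921-55038000 (plus). Each is written 5′ to 3′ on the strand of its gene, with the match in capitals.
Aars, first match: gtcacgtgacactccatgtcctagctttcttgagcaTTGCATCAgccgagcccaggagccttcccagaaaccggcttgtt
Aars, second match: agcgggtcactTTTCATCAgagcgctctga
Iars: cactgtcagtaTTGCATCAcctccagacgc
Tars: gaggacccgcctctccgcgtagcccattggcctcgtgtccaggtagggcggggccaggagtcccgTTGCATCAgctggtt
Yars: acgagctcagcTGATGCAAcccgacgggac
Gars: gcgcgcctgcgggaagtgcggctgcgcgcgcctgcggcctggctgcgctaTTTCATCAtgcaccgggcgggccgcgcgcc
Counted from the first transcribed base as position 1, with no position 0, the matches began at -112 and 10 in Aars, 8 in Iars, -15 in Tars, 4 in Yars and -30 in Gars. A match is a string of letters and does not show that a factor binds there.

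Signal was weaker on the acinar array, where 22654 of 55664 probes (40.7%) were well above background, than on the ADM (27676) and duct (27849) arrays. Levels are log2 processed signal minus the 75th percentile of the array, so 0 marks that percentile. Levels of the same probe are compared between arrays, and levels of different probes are not compared. Repeated spots of 1 probe had a median SD of 0.12 log2 units in acinar, 0.11 in ADM and 0.09 in duct. Different probes of 1 gene differed far more: over 1833 genes, a duct minus acinar difference read from 1 probe had an SD of 1.30 log2 units. That SD was 1.07 for ADM minus acinar and 1.25 for ADM minus duct. A single member within about 2-fold therefore cannot be told from no difference. Nor does exceeding 1 SD, as some members do below, show that a single difference is real. The summed signal of 11 acinar markers, in multiples of the 75th percentile, was 22950 on the acinar, 6971 on the ADM and 1367 on the duct array, with all 11 well above background on each array. The summed signal of 10 duct markers was 15.96, 50.4 and 115.7 in the same order, so both sums follow the labels, although Cftr was not well above background on any array. Other sums that moved were those of 12 macrophage markers (109, 441 and 90.2), 12 fibroblast and stellate markers (86.3, 339 and 335) and 9 islet markers (750, 1175 and 664). Of the macrophage markers 11 were well above background in acinar, all but Cd14, and 12 in each of the others. The sums were 15.2, 15.4 and 22.5 for 8 endothelial and 8.23, 9.46 and 6.14 for 9 lymphocyte markers. Of the endothelial markers compared with acinar, 5 of 6 in duct and 5 of 7 in ADM were higher by 2-fold or more.

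Cytosolic enzymes were more often well above background than mitochondrial ones. Of the 18 cytosolic genes, 17 were well above background in acinar, 18 in ADM and 16 in duct, and 16 were so on all 3 arrays. Of the 16 mitochondrial genes, 9, 11 and 12 were well above background, and 7 were so on all 3. Mars2 and Nars2, the mitochondrial enzymes for methionine and asparagine, were not well above background on any array. Of all named genes, 9539 (45.1%) were well above background on all 3. Where 1 side of a difference was not well above background, the difference is a bound, given as "at least".

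**Figure D1:**
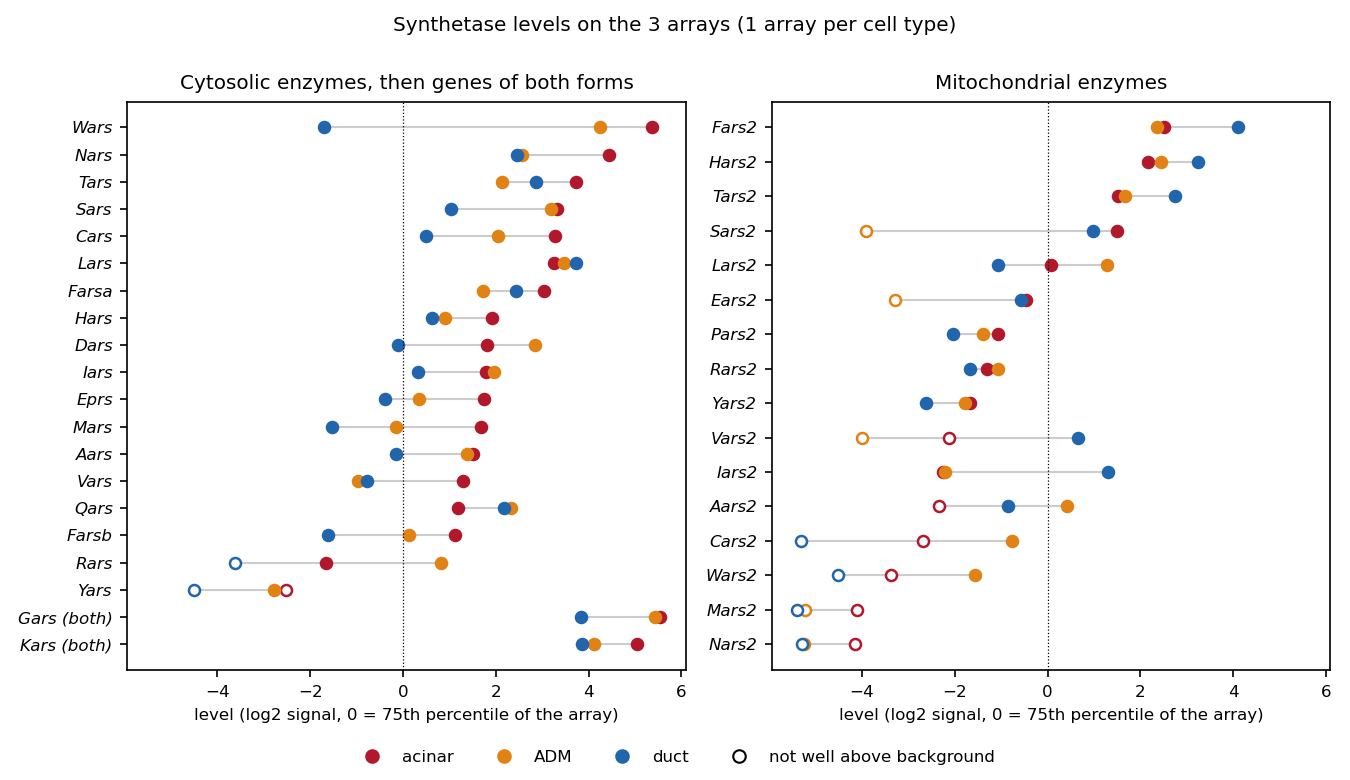
Level of every member on the acinar (red), ADM (orange) and duct (blue) arrays, in log2 units with 0 at the array's 75th percentile (brightest probe of each gene, 1 array per cell type). Open circles were not well above background. In the left panel most red points lie to the right of the blue ones, with Lars and Qars as exceptions.

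The cytosolic enzymes were lower in duct than in acinar cells. Of 17 cytosolic synthetases compared, 13 were at least 2-fold lower in duct, 4 were within 2-fold and 0 were higher. Over all 13826 named genes compared, 24.6% were at least 2-fold lower and 27.4% at least 2-fold higher. The median cytosolic difference was -1.92 log2 units, or 3.77-fold lower in duct, beside 0.00 for all genes. All 13 lower values exceeded the single-probe SD of 1.30, Hars only just. That SD holds the spread between probes on these arrays and none between samples or dissections. With normexp background correction, whose offset shrinks differences of dim probes, 8 were lower and 1 was higher, with a median of -0.99. The acinar marker sum was also lower on the duct array (1367 against 22950), and its part in the difference was not tested. In dissected tissue, fewer cells of a type and less RNA per cell cannot be told apart.

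Wars, the tryptophan enzyme and a known interferon-induced gene, had levels of 5.37 in acinar, 4.24 in ADM and -1.71 in duct, so duct stood apart from both others. The duct minus acinar difference was -7.08 with this probe. A second probe, assigned to another transcript record of Wars, read 3.94, 2.70 and 1.06, a difference of -2.88. The direction was the same with both probes, but the size was not settled.

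Mars, which charges methionine for initiator and elongator tRNA alike, read 1.69 in acinar, -0.16 in ADM and -1.53 in duct, and was 9.30-fold lower in duct than in acinar. Cars, the cysteine enzyme, read 3.28, 2.04 and 0.50, which was 6.88-fold lower in duct. Farsb, the beta subunit of the phenylalanine enzyme, read 1.13, 0.13 and -1.62, which was 6.70-fold lower. For Mars and Cars ADM lay between the other cell types, past 2-fold from each, while Farsb in ADM was within 2-fold of acinar. Sars, the serine enzyme, had levels of 3.33, 3.20 and 1.03, with ADM close to acinar. Eprs, the bifunctional enzyme for glutamate and proline, had levels of 1.75, 0.35 and -0.40. Vars, the valine enzyme, read 1.29, -0.97 and -0.77, and Nars, the asparagine enzyme, read 4.43, 2.56 and 2.45, so in both of these ADM was within 2-fold of duct. Aars (alanine) read 1.51, 1.37 and -0.14, Iars (isoleucine) 1.79, 1.96 and 0.33, and Dars (aspartate) 1.81, 2.84 and -0.11. In these 3 genes ADM was within 2-fold of acinar or above it. Hars, the histidine enzyme, read 1.93, 0.90 and 0.63. Rars, the arginine enzyme, read -1.67 in acinar and 0.82 in ADM and was not well above background in duct, so it was at least 3.05-fold lower in duct than in acinar. The dual genes were lower in duct as well: Gars (glycine) read 5.55, 5.43 and 3.84, and Kars (lysine) 5.05, 4.12 and 3.85, differences of -1.71 and -1.20 between duct and acinar.

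The 4 cytosolic members within 2-fold between duct and acinar were Tars (-0.86), Farsa (-0.62), Lars (0.48) and Qars (0.99). The second probe of Farsa gave -1.73, so whether Farsa was within 2-fold was not settled. Tars, the threonine enzyme, read 3.73 in acinar, 2.14 in ADM and 2.88 in duct. Lars, the leucine enzyme that also senses leucine for mTORC1, read 3.25, 3.46 and 3.73, with no pair of arrays 2-fold apart. Qars, the glutamine enzyme, was lowest in acinar, at 1.19, 2.32 and 2.18. Yars, the tyrosine enzyme, was well above background in ADM only, at -2.78, and was not compared between duct and acinar. Among the genes with the motif letters, Aars, Iars and Gars were past 2-fold lower in duct and Tars was not. The motif thus occurred in members on either side of the 2-fold limit.

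The mitochondrial enzymes were not lower in duct as a group. Of 12 compared, 6 were at least 2-fold higher in duct (27.4% of named genes were) and 1 was lower (24.6%). The other 5 were within 2-fold, and the median was 0.48. Of the 6 higher values 3 exceeded the single-probe SD of 1.30: Fars2, measured on both arrays, and Iars2 and Vars2, which were bounds. The lower value did not exceed it. Fars2, the phenylalanine enzyme of mitochondria, read 2.51 in acinar, 2.35 in ADM and 4.11 in duct, a duct minus acinar difference of 1.60. Tars2 read 1.51, 1.68 and 2.74, and Hars2 read 2.16, 2.43 and 3.24. In these 3 genes duct was at least 2-fold above acinar, and acinar and ADM were within 2-fold of each other. ADM was within 2-fold of duct for Hars2. Aars2, Iars2 and Vars2 were not well above background in acinar and were at least 2.28-fold, at least 10.1-fold and at least 6.54-fold higher in duct. The second probes of Iars2 and Vars2 set no such difference, with a bound of 0.00 each. Lars2, at 0.07, 1.29 and -1.06, was the mitochondrial gene that was lower in duct, by 2.19-fold. The 6 higher values depended on how dim signals were treated: 3 remained past 2-fold among genes well above background on all 3 arrays. The mitochondrial median over the 7 such genes was -0.37, beside -0.15 for all named genes filtered the same way. With no filter on dim probes it was -0.44 over all 16 genes, beside -0.60 for all named genes.

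**Figure D2:**
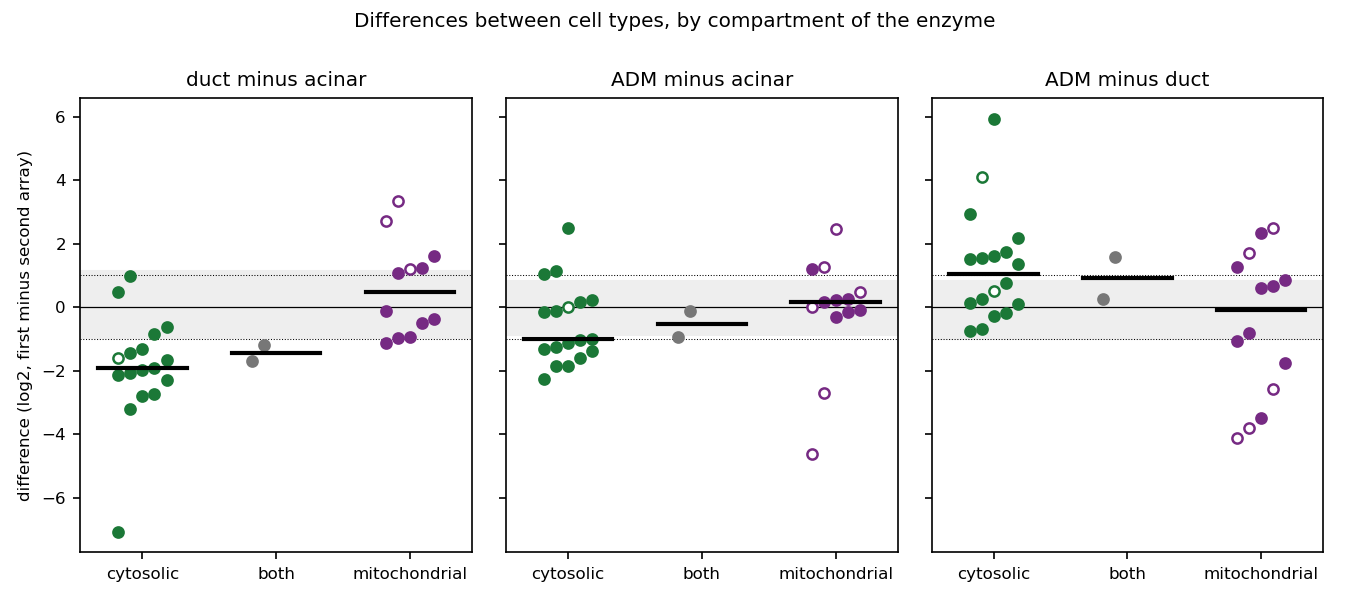
Difference between 2 arrays, in log2 units, for each compared member by the compartment of its enzyme ("both" marks Gars and Kars). Black bars are medians, open circles are bounds, dotted lines mark 2-fold, and the grey band holds the middle 50% of all named genes. The cytosolic median lies at -1.92, -1.01 and 1.06 from left to right, and the mitochondrial median at 0.48, 0.17 and -0.10.

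Many cytosolic members were lower in ADM than in acinar cells. Against acinar, 9 of 18 cytosolic members were at least 2-fold lower in ADM (22.0% of 13632 named genes were), 3 were at least 2-fold higher (21.8% of named genes) and 6 were within 2-fold, with a median of -1.01. The 6 include Yars, whose value was a bound set to 0, so its difference was not measured. The 9 lower members were Vars (-2.26), Nars (-1.87), Mars (-1.85), Tars (-1.59), Eprs (-1.39), Farsa (-1.32), Cars (-1.24), Wars (-1.14) and Hars (-1.03), and 8 of them exceeded the single-probe SD of 1.07. Farsa was lower with its brighter probe only, as its second probe gave -0.03, so its call was not settled. The second probe of Wars gave -1.24. With normexp 3 of the 18 were lower and the median was -0.47. The 3 higher members were Rars (2.48), Qars (1.13) and Dars (1.03), all of which belong to the multisynthetase complex, and 2 of them exceeded that SD. Rars was dim in acinar, at -1.67 beside a lowest level well above background of -2.04, and its difference was 0.66 with normexp. Gars (-0.12) and Kars (-0.94) were within 2-fold. The macrophage marker sum was 441 on the ADM array against 109 on acinar, and its part in these differences was not tested.

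Members of the multisynthetase complex and other cytosolic members had different medians in ADM. The 7 cytosolic-only complex members (Dars, Eprs, Iars, Lars, Mars, Qars and Rars) had a median ADM minus acinar difference of 0.22, with 3 higher and 2 lower. The 11 cytosolic members outside the complex had a median of -1.14, with 0 higher and 7 lower. Of all named genes, 21.8% were at least 2-fold higher and 22.0% at least 2-fold lower. Between duct and acinar the medians were closer, at -1.61 and -2.02. The split rests on 7 genes read from 1 probe each, and Rars, 1 of the 3 higher, was within 2-fold with normexp (0.66). The structural classes of the enzymes, class I and class II, had duct minus acinar medians of -1.84 and -1.79, so the lower values in duct spanned both.

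Against duct, 9 of 18 cytosolic members were at least 2-fold higher in ADM (21.6% of 14475 named genes were), 0 were lower (24.8% of named genes) and the median was 1.06, beside -0.05 for all genes. The median was 0.54 with normexp. The 9 were Wars (5.94, and 1.63 with its second probe), Rars (at least 4.09), Dars (2.95), Sars (2.17), Farsb (1.75), Iars (1.62), Cars (1.54), Aars (1.52) and Mars (1.37). Gars was also higher in ADM than in duct, by 1.59. The acinar marker sum was 6971 on ADM against 1367 on duct and the macrophage sum 441 against 90.2, and their part was not tested. Farsa, the alpha subunit of the phenylalanine enzyme, gave opposite answers from its probes: its brighter probe read 3.05, 1.73 and 2.43 in acinar, ADM and duct, and the other read 0.78, 0.75 and -0.95. The ADM minus duct difference was -0.70 with the first and 1.70 with the second, so its direction was not settled, while Farsb, the partner subunit, was higher in ADM with its only probe. These comparisons share arrays with the earlier ones and are not independent of them.

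The mitochondrial members had no common direction in either comparison with ADM. Against acinar, 3 of 13 were higher in ADM by 2-fold or more and 2 were lower, with a median of 0.17. Those shares lay near the 21.8% and 22.0% of all named genes. Those higher were Aars2 (at least 5.50-fold), Cars2 (at least 2.43-fold) and Lars2 (2.33-fold). The second probe of Cars2 gave a bound of only 0.23 log2 units. Aars2 and Cars2 were not well above background in acinar. Those lower were Sars2 and Ears2, the serine and glutamate enzymes. Sars2 read 1.49 in acinar and 0.98 in duct and was not well above background in ADM, at least 24.9-fold below acinar. Ears2 read -0.46 and -0.58 in acinar and duct and was likewise not well above background in ADM, at least 6.46-fold below acinar. Each of these low readings comes from 1 probe on 1 array.

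Against duct, 4 of 14 mitochondrial members were at least 2-fold higher in ADM (Cars2, Lars2, Wars2 and Aars2), beside 21.6% of all named genes. Another 6 were lower (Sars2, Vars2, Iars2, Ears2, Fars2 and Tars2), beside 24.8%, and the median was -0.10. Of the 14 values 5 were bounds. Lars2 was 5.09-fold higher and Fars2 3.40-fold lower, each well above background on both arrays. Probes of a gene disagreed in direction for 3 of the 10: Tars2 (-1.06 and 0.44), Vars2 (at least 3.81 lower, against 0.44) and Wars2 (at least 1.72 higher, against -2.06). Pars2 (-1.08 in acinar, -1.39 in ADM and -2.04 in duct), Rars2 (-1.31, -1.07 and -1.68) and Yars2 (-1.68, -1.77 and -2.63) were well above background throughout and within 2-fold between any pair of arrays. These 3 are the mitochondrial enzymes for proline, arginine and tyrosine.

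Pairing the cytosolic and mitochondrial enzyme for the same amino acid compares the compartments gene by gene. There were 17 such pairs, in which Eprs and Fars2 each occur 2 times because Eprs charges both glutamate and proline and the cytosolic phenylalanine enzyme has 2 subunits. Between duct and acinar, the cytosolic difference lay below the mitochondrial one in 11 of 12 pairs, with a median gap of -2.16, and in 7 of the 8 pairs without a bound. The exception was leucine, with Lars at 0.48 and Lars2 at -1.13. Among pairs well above background on both arrays, Farsb (-2.74) stood against Fars2 (1.60), and Hars (-1.30) against Hars2 (1.08). Between ADM and acinar the cytosolic difference was the lower one in 9 of 14 pairs, the higher one in 4 and not settled by the bounds in 1. Among the 4 is the tyrosine pair, with Yars at 0.00 and Yars2 at -0.09. There the Yars value is a bound of the wrong sign set to 0, so this pair is not settled either. Between ADM and duct it was the higher one in 11 of 15 pairs, the lower one in 2 and not settled in 2. The gap itself was at least 2-fold in all 11 lower pairs for duct minus acinar, in 8 of the 9 lower pairs for ADM minus acinar and in 8 of the 11 higher pairs for ADM minus duct. The difference of medians, cytosolic minus mitochondrial, was -2.39 for duct minus acinar, -1.18 for ADM minus acinar and 1.16 for ADM minus duct. These medians include genes that were compared because they were bright on 1 array alone. Among genes well above background on all 3 arrays (16 cytosolic and 7 mitochondrial) the gaps were -1.58, -1.25 and 0.46.

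**Figure D3:**
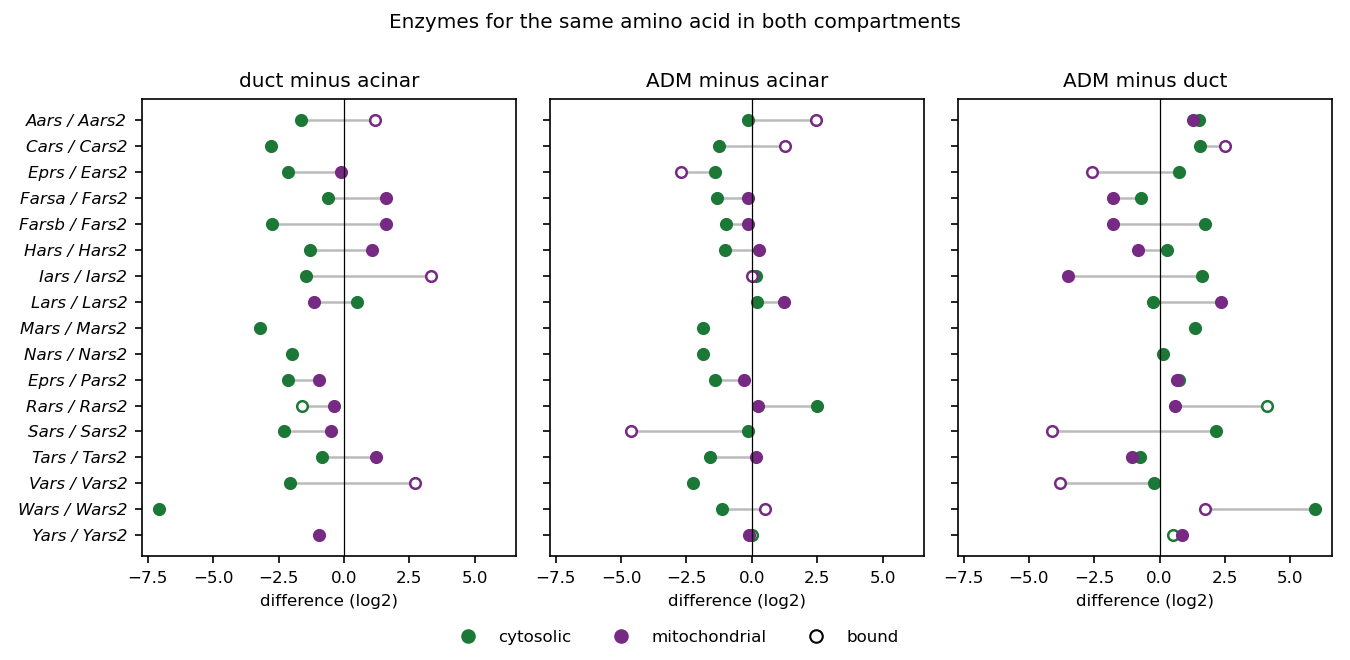
Differences between 2 arrays, in log2 units, for the cytosolic (green) and mitochondrial (purple) enzyme of the same amino acid, joined by a grey line where both were compared. Open circles are bounds. In the left panel the green point lies left of the purple one in 11 of 12 joined pairs.

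The order of the 3 arrays was read for members well above background on all of them. Of 16 cytosolic members, 9 ran acinar, ADM, duct from high to low (Aars, Cars, Eprs, Farsb, Hars, Mars, Nars, Sars and Wars), an order shown by 26.5% of 9539 named genes. Gars and Kars had that order too. A further 3 (Farsa, Tars and Vars) ran acinar, duct, ADM (15.7% of named genes), and Dars and Iars ran ADM, acinar, duct (12.1%). Qars ran ADM, duct, acinar (10.2%) and Lars duct, ADM, acinar (19.6%). Neighbours within 2-fold cannot be ranked, such as acinar and ADM for Aars, Sars, Iars, Farsb and Gars. The same holds for ADM and duct in Nars, Vars, Hars and Eprs. Of the 9 members that ran acinar, ADM, duct, only Cars, Mars and Wars were past 2-fold at both steps. Of the 7 mitochondrial members, Pars2 and Yars2 ran acinar, ADM, duct, Lars2 and Rars2 ran ADM, acinar, duct, Hars2 and Tars2 ran duct, ADM, acinar, and Fars2 ran duct, acinar, ADM (15.9%).

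Genes that act with the synthetases were described by the same counts. Among targets of the amino acid response, 26 of 30 were at least 2-fold lower in duct than in acinar and 2 were higher, with a median of -2.29. They included Slc7a5, a transporter of large neutral amino acids (-6.56), Phgdh and Psat1, enzymes of serine synthesis (-6.09 and -5.99), and Nupr1, a stress-induced chromatin protein (-4.80). In ADM 9 of 30 were lower than in acinar (22.0% of all named genes) and 5 were higher (21.8%), with a median of -0.54. Against duct, 22 of 30 were higher in ADM (21.6%) and 1 was lower (24.8%), with a median of 2.30. The cytosolic synthetase medians beside these were -1.92, -1.01 and 1.06. Among regulators of uncharged tRNA sensing and eIF2, 5 of 13 were lower and 3 higher in duct than in acinar, beside 24.6% and 27.4% of all named genes. The sensor kinase gene Eif2ak4 read -0.12 in acinar, -2.07 in ADM and -0.26 in duct.

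Between duct and acinar, factors of cytosolic translation had smaller median differences than the cytosolic synthetases. The counts that follow stand beside 24.6% of all named genes at least 2-fold lower in duct and 27.4% higher. Of 11 elongation and termination factors, 6 were at least 2-fold lower in duct than in acinar and 0 were higher, with a median of -1.24. Eif5a, which helps ribosomes past proline stretches, was lower by 2.60 log2 units and Eef1g by 1.99. Between ADM and acinar the median of these factors was -0.91, close to the -1.01 of the cytosolic synthetases. Of 26 initiation factors, 5 were lower in duct than in acinar (19.2%), 2 were higher (7.7%) and the median was -0.60. Both of these shares were below those of all named genes. Of 7 compared scaffold and proofreading genes 0 were lower and 1, the proofreading enzyme Dtd1, was higher (2.05). The scaffold gene Aimp1 read 3.75 in acinar, 3.57 in ADM and 4.09 in duct, with no pair 2-fold apart, while Eef1e1 read 1.06, -1.66 and 0.85, low in ADM alone. Of 21 genes of tRNA processing and export, 8 were lower in duct and 3 higher, with a median of 0.00. Rtcb, the tRNA ligase, had the largest difference of those well above background on both arrays, at -2.85. Of 75 mitochondrial ribosome genes 18 were lower in duct and 11 higher, with a median of -0.27. The lower share was that of all named genes (24.6%), and the higher one was below theirs (27.4%).

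**Figure D4:**
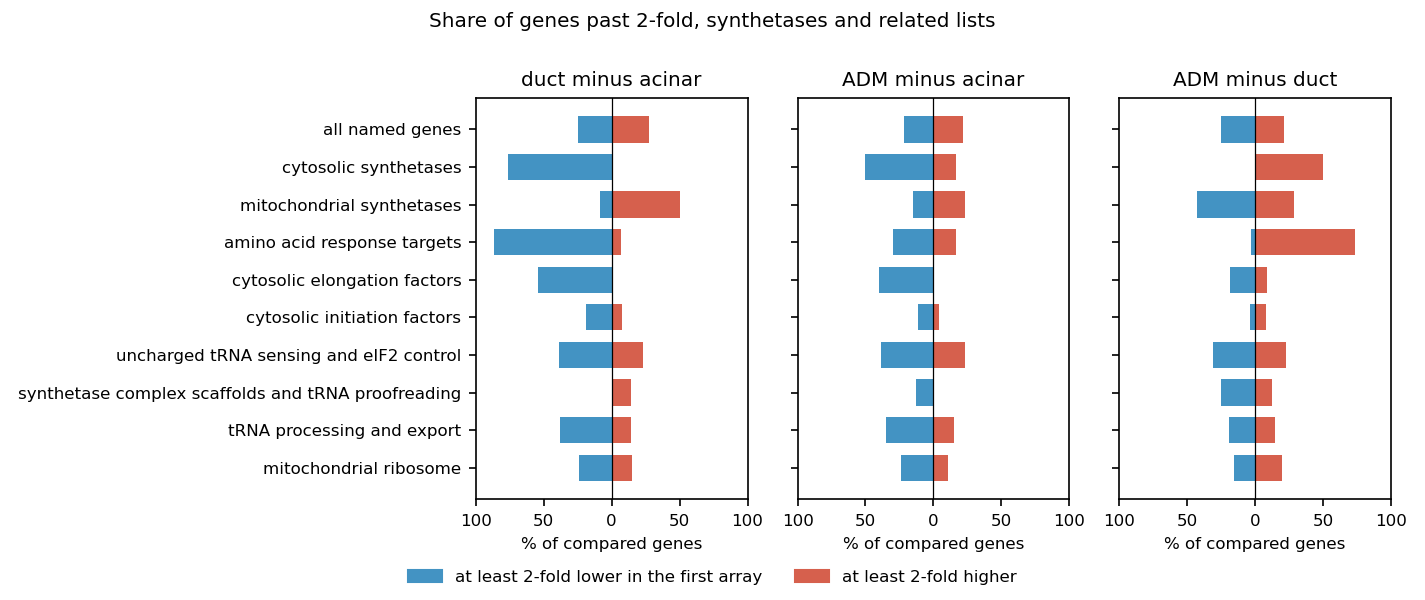
Share of compared genes, in percent, that were at least 2-fold higher (red, right of 0) or lower (blue, left of 0) in the first array of each comparison, for all named genes, the synthetases and related gene lists. In the left panel the blue bars of cytosolic synthetases (13 of 17) and amino acid response targets (26 of 30) stand out from the 24.6% of all named genes.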

How the data were processed

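RNA of 3 microdissected cell groups was hybridised to 3 1-colour arrays, all on 1 slide with 1 scan date. Per the labels' protocols, 1.181 ng of RNA was amplified and 2.0 µg of cDNA labelled with Cy3. Scanning output came from Agilent Feature Extraction 11.5.1.1, which per the file headers wrote the deposited spot intensity (background-subtracted processed signal, linear) and the deposited flags. A further deposited table gives log2 values for 32939 probes. Its columns differed from log2 processed signal by 1 constant per array (-5.13 acinar, -6.17 ADM and -6.58 duct, within 0.001 for 32642, 32646 and 32673 probes), without centring per gene or a turned sign, with medians of -0.57, -0.56 and -0.63. It held 34 of the 36 members and served as an alternative.

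Control spots (3671 of 62976) and outlier flags were left out, spots of a probe were averaged, and each array's 75th percentile over 55664 probes was subtracted. The 75th-percentile intensity was 35.2 for acinar, 72.2 for ADM and 95.7 for duct, with 0 saturated spots. Probes were named by unversioned accession through the RefSeq table of GRCm38.p6: 28020 matched 1 symbol, 0 several and 27644 stayed unnamed. A gene was represented by its brightest probe, by mean level. Genes well above background on 1 or both arrays were compared. A dim side took its own level or the lowest level well above background on that array, whichever was higher, and a bound of the wrong sign was set to 0. The SD of 1 probe is the SD of the gap between the 2 brightest probes of a gene, scaled to a single probe.

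With 1 array per group no test was run, and precision is limited by the number of arrays. Members, lists, comparisons and alternatives were chosen with earlier results of these data known. All members are accounted for, those past 2-fold or with opposed probes in full. Of each other list up to 4 genes a comparison could be named, chosen by size of difference where both arrays were well above background, and the text names part of these. One related gene list is not reported here. The normexp alternative (limma 3.58.1, R 4.3.3, offset 50) used the median spot signal in place of the mean, with the median local background. Scripts (Python 3.11.15, pandas 2.3.3, numpy 2.4.6) were tested on simulated data.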

Additional observations from a re-analysis of the deposited data

How the results depend on the processing

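No paired analysis was possible because each group has 1 array. The 13 cytosolic members lower in duct than in acinar kept their direction under every alternative that gave a value, and 8 of them stayed past 2-fold in all of these. Rars gave none among genes well above background on all 3 arrays. The same held for 9 and 3 of the 9 lower in ADM than in acinar, for 3 and 2 of the 3 higher there, and for 9 and 6 of the 9 higher in ADM than in duct. The mitochondrial calls held less often: 4 of the 6 higher in duct than in acinar kept their direction and 2 stayed past 2-fold throughout. Scaling by the median moved the median of all genes by 0.28 for duct minus acinar and by -0.16 for ADM minus duct. The share of higher genes among those past 2-fold was 52.7% for duct minus acinar, 49.7% for ADM minus acinar and 46.5% for ADM minus duct, against 64.7%, 58.9% and 40.7% with median scaling, 65.7%, 64.4% and 40.9% with normexp, and 34.9%, 33.3% and 49.7% with no filter on dim probes.

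With normexp, which adds an offset of 50 and so shrinks differences of dim probes, 8 cytosolic members were lower and 1 higher in duct than in acinar (median -0.99), 3 were lower in ADM than in acinar (median -0.47), and the ADM minus duct median was 0.54. With it 0 mitochondrial members were lower in duct than in acinar, 0 were higher and 1 lower in ADM than in acinar, and 1 was higher in ADM than in duct (median -0.62). With median scaling 1 cytosolic member was higher and 0 mitochondrial members were lower in duct than in acinar. At a 1.5-fold limit, 1 cytosolic and 3 mitochondrial members were, respectively, higher and lower in duct than in acinar, and 2 cytosolic were lower and 7 mitochondrial higher in ADM than in duct. Among genes well above background on all 3 arrays, which leaves fewer genes, 3 mitochondrial members were higher in duct than in acinar (median -0.37), 1 was higher and 0 lower in ADM than in acinar, and 1 was higher and 2 lower in ADM than in duct (median 0.60). With no filter, 5 mitochondrial members were lower in duct (median -0.44) and 5 in ADM than in acinar, and the cytosolic ADM minus duct median was 1.44. With the second-brightest probe, 3 mitochondrial members were higher in duct than in acinar (median 0.00), and the cytosolic medians were -0.57 for ADM minus acinar and 1.44 for ADM minus duct. With the mean of probes, the mitochondrial medians were 0.00 for duct minus acinar and -0.75 for ADM minus duct. With Gars and Kars counted as mitochondrial, 3 were lower in duct than in acinar (median -0.25), and the ADM minus duct median was 0.44. The genes that changed sign for ADM minus duct were Tars2 to 0.0631 with the mean of probes and 0.44 with the second probe, Vars2 to 0.44 with the second probe, and Wars2 to -0.57 with normexp, -0.71 with the mean and -2.06 with the second probe. The cause was not tested. Of the 16 mitochondrial genes, 9 were not well above background on at least 1 array. The share well above background on all 3 arrays was 43.8% for mitochondrial genes, 88.9% for cytosolic genes and 45.1% for all named genes.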
